A study of Homo sapiens with 9 samples.

Results

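The genes described here are 30 genes of cholesterol and fatty acid synthesis, most of them known targets or partners of the sterol regulatory element binding proteins (SREBPs), in ovarian cancer cells depleted of MPZL3. They were chosen by symbol, with earlier results of these data known, from the 58735 genes of a deposited RNA-seq count table. All 30 were found there and passed the filter on low counts. Of these, 7 act in the mevalonate steps and 11 between squalene and cholesterol, which together form the sterol branch of 18 genes. The fatty acid branch has 7 genes, and the remaining 5 control the pathway or move sterol inside the cell.

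The study asked what MPZL3, a membrane protein with an immunoglobulin-like domain, does in ovarian cancer cells. OVCAR4, an established human line labelled as ovarian serous adenocarcinoma, was transduced with lentivirus and selected with puromycin, and RNA-seq was made of 9 libraries in 3 groups of 3 biological replicates. The scr control group carried a scrambled hairpin, the second group carried shMPZL3 #1, and the third carried shMPZL3 #2, a hairpin against another site of the MPZL3 transcript. All groups shared the vector, the selection and a medium with fetal bovine serum, glutamine and insulin, so that serum lipids were present throughout. The groups are cultures of 1 cell line, and p-values measure the spread between such cultures. Where the libraries of both shRNAs are pooled into 1 knockdown group, that spread also holds the difference between the shRNAs.

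Cells build cholesterol from acetyl-CoA, first through the mevalonate steps to isoprenoids and then from squalene through a series of sterols. Fatty acids start from the same acetyl-CoA, which is carboxylated, joined into saturated chains, lengthened and desaturated. When sterol in the endoplasmic reticulum is low, the escort protein SCAP brings SREBPs to the Golgi, where they are cut and released to activate these genes, while INSIG proteins hold the complex back when sterol is plentiful. SREBP-2, the product of SREBF2, acts mainly on sterol genes, and SREBP-1, the product of SREBF1, mainly on fatty acid genes.

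The libraries held between 15040102 and 27835841 counts, and each member had at least 165 counts in every library. MPZL3 itself had 536 to 611 normalized counts (counts scaled to a common library size) in scr control, 119 to 143 with shMPZL3 #1 and 284 to 380 with shMPZL3 #2, and the groups did not overlap. The epithelial markers EPCAM, PAX8, MUC16, CDH6 and the keratins KRT7, KRT8, KRT18 and KRT19 had at least 3381 counts in every library, whereas MSLN had 46 to 100 and WT1 at most 13. The 6 leukocyte markers had normalized counts that summed to 46 to 66 for scr control, 78 to 109 for shMPZL3 #1 and 77 to 137 for shMPZL3 #2, with CD3E at 0 in 8 of 9 libraries and CD68 at 0 or 1. The 4 endothelial markers summed to 167 to 207, 152 to 183 and 256 to 332 in the same order. The 6 fibroblast markers summed to 326 to 416 in scr control, 725 to 1050 with shMPZL3 #1 and 632 to 688 with shMPZL3 #2, nearly all from COL1A1 and LUM, and DCN had 0 counts in every library. What part these differences in marker sums have in the results below was not tested.

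Promoter sequences are shown first, because the members are grouped by a shared regulator. RefSeq start sites on GRCh38.p14 were found for 26 of the 30 members, with 35 windows in all, and each window covers the 250 bases before a start. ACAT2, FDFT1, SQLE and FASN had no window. Windows were searched on both strands for an SRE core (CACNCCAC), the kind of element that SREBPs bind, and for CCAAT (bound by NF-Y), GGGCGG (bound by Sp1) and CACGTG (an E-box). The SRE core was in 6 of the 35 windows, 17.1%, and in 4.87% of all 35116 windows of the table. CCAAT was in 23, 65.7%, against 32.0% of all windows, GGGCGG in 31, 88.6%, against 42.6%, and CACGTG in 4, 11.4%, against 6.34%. Counted by gene and set against the 11281 tested genes with a window, the shares were 23.1% of members against 6.74% for the SRE core, 73.1% against 40.6% for CCAAT, 96.2% against 73.7% for GGGCGG and 11.5% against 11.1% for CACGTG, so that the share of CACGTG was near that of tested genes. Of the 9 members with a window that were lower in the grouped comparison described below, 3 held the SRE core and 6 held CCAAT, and of the 17 others 3 and 13 did. These matches are descriptions of letters in a window and not measurements of binding. The windows of 5 members are printed 5′ to 3′ on the strand of the gene, with SRE core and CCAAT matches of either strand in capitals. INSIG1 (chr7:155297628-155297877, plus strand), IDI1 (chr10:1048887-1049136, minus strand) and SCD (chr10:100346983-100347232, plus strand) are shown as examples with both letters, which ACACA, SC5D and SREBF2 also had. MSMO1 (chr4:165327419-165327668, plus strand) is an example with CCAAT 4 times and no SRE core. FADS1 (chr11:61817004-61817253, minus strand) is an example with neither, and other members such as FADS2 and ELOVL6 had neither as well. In IDI1 a CCAAT on the plus strand overlaps one on the minus strand.
INSIG1: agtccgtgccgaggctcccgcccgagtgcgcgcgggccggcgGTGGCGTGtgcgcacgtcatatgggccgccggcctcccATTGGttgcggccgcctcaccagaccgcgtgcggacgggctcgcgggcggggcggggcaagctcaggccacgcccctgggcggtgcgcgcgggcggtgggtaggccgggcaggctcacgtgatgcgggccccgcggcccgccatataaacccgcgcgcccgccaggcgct
IDI1: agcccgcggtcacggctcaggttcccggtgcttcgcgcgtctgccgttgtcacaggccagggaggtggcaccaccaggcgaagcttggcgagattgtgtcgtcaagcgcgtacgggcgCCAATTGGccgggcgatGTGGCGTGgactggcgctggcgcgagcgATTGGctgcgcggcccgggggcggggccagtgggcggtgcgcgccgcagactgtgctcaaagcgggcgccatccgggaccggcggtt
MSMO1: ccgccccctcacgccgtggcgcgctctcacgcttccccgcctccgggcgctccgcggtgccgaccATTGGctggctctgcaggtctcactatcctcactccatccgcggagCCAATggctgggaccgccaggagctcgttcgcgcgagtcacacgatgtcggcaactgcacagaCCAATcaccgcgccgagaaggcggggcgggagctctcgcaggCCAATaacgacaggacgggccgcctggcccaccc
SCD: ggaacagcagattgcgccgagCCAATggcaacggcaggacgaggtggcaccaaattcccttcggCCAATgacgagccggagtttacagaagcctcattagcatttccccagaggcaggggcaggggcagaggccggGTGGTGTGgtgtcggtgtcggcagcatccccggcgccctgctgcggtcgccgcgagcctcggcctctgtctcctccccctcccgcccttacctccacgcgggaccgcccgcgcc
FADS1: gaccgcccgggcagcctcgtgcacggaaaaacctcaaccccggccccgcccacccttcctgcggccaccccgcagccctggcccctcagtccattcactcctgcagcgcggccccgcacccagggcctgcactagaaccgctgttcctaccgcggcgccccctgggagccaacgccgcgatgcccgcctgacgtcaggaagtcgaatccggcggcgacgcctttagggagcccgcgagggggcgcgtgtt

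MPZL3 knockdown lowered many of these transcripts and raised none. With both shRNAs grouped as the knockdown condition, 12 of the 30 members were lower than in scr control and 0 were higher at an adjusted p-value under 0.05 (edgeR's quasi-likelihood test), the rule by which a gene is called throughout. Among all genes tested, 6.4% were lower and 9.36% were higher. The 12 were ACAT2, HMGCS1 and IDI1 of the mevalonate steps, FDFT1, SQLE, MSMO1 and HSD17B7 of the later sterol steps, ACACA, ELOVL6, FADS1 and FADS2 of the fatty acid branch, and INSIG1. The median log2 fold change was -0.40 over the 30 members, against 0.02 over all genes, and 29 of the 30 values lay below 0. In 15 members all 6 knockdown libraries lay below all 3 control libraries, as they did in 11% of all genes tested. Such a separation by itself fixes p at 0.0238 when log2 CPM is compared by exact permutation of the libraries (two-sided). This is the smallest p that 6 libraries against 3 can give, so it adds nothing to the separation of those 15 members. A comparison of 3 against 3 cannot go below 0.1.

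**Figure D1:**
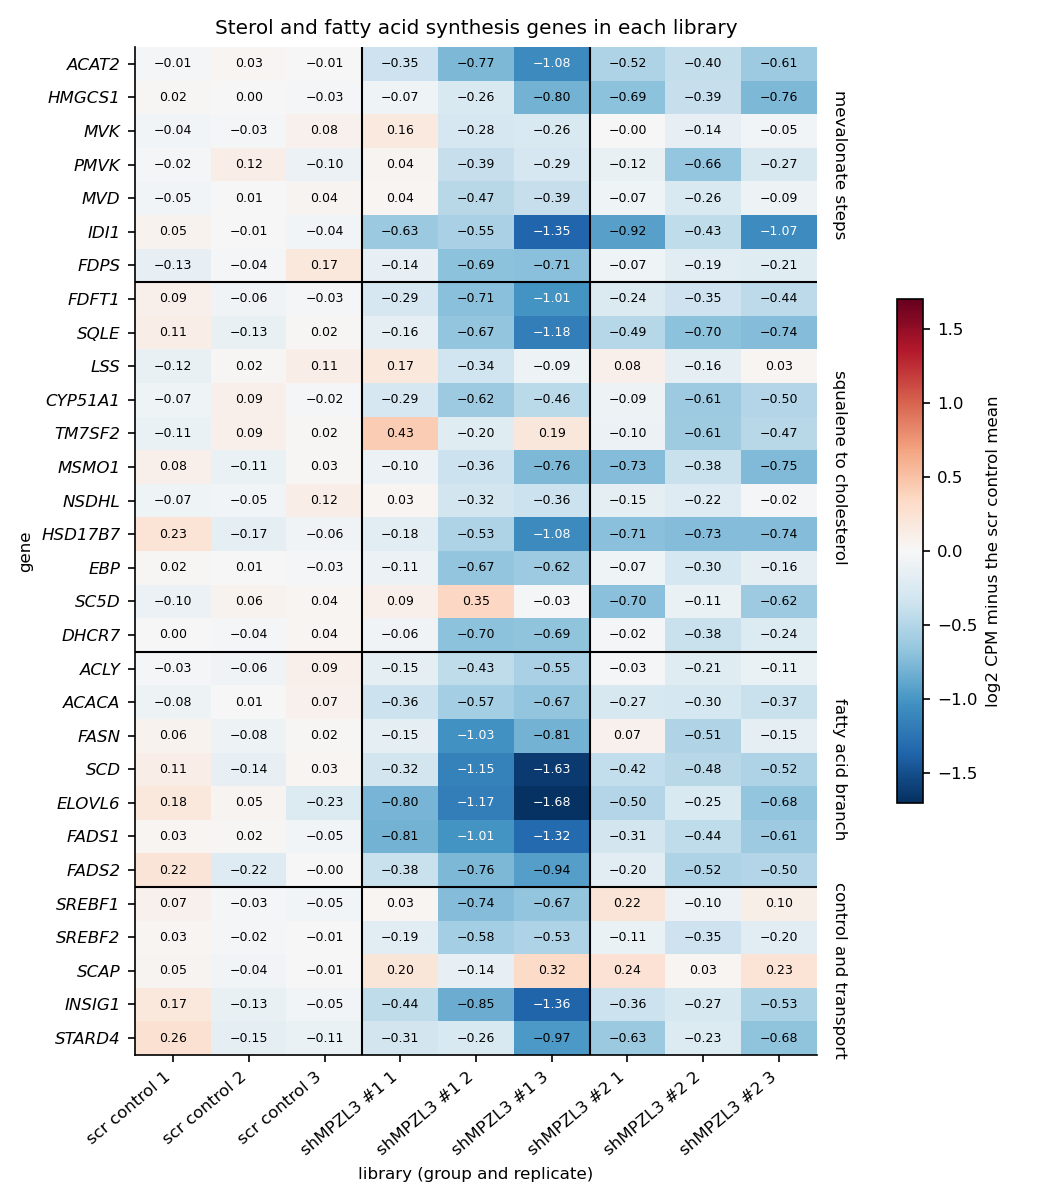
Heat map of log2 CPM minus the mean of the 3 scr control libraries for the 30 genes (rows, by role) in each of the 9 libraries (columns), with the value printed in each cell. ELOVL6 reached -1.68 in shMPZL3 #1 replicate 3, and SCAP is the 1 gene whose grouped log2 fold change, 0.16, is above 0.

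Each shRNA was then compared with the same 3 control libraries, so the following values are not independent of each other. With shMPZL3 #1, 20 of the 30 members were lower and 0 higher, where 15.3% of all genes were lower and 16.8% higher. With shMPZL3 #2, 9 were lower and 0 higher, where 5.8% of all genes were lower and 9.36% higher. ACAT2, IDI1, SQLE, MSMO1, HSD17B7, ACACA and FADS1 were lower with both shRNAs, 7 of the 30, against 3.53% of all genes. HMGCS1 and SC5D were called with shMPZL3 #2 but not with shMPZL3 #1, 13 members with shMPZL3 #1 but not with shMPZL3 #2, and MVK, PMVK, MVD, LSS, TM7SF2, NSDHL, SREBF1 and SCAP with neither. Such a pattern of calls is not a difference between the shRNAs, which was tested directly and is given further on, and with the replicate number as a block in the fit 8 of those 15 members were called with both.

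These counts rested on few libraries. The grouped count of 12 was 1 without scr control replicate 1 or replicate 2 and 3 without scr control replicate 3, and the share of all genes called lower then was 0.978%, 1.58% and 2.40%. The count of 20 with shMPZL3 #1 was 13 without scr control replicate 3 (11.8% of all genes lower) and 10 without shMPZL3 #1 replicate 3 (9.68%). The count of 9 with shMPZL3 #2 was 4 without scr control replicate 1 (2.77% of all genes lower), 5 without scr control replicate 2 (2.86%), 1 without shMPZL3 #2 replicate 3 (2.02%) and 14 without shMPZL3 #1 replicate 3 (6.70%). IDI1 was called lower in all 3 comparisons under each of the 15 alternatives tried. Among the members lower with both shRNAs, MSMO1 lost its call with shMPZL3 #1 under 9 alternatives. ACACA lost its call with shMPZL3 #2 under 7. Of the 9 calls with shMPZL3 #2, 1 was kept under all alternatives.

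Of the mevalonate steps, IDI1 fell the most. IDI1 encodes isopentenyl diphosphate isomerase, which makes the primer for isoprenoid chains, and its gene (ENSG00000067064) spans chromosome 10 from 1039152 to 1049170 on GRCh38. IDI1 had 3391, 3242 and 3172 normalized counts in scr control, 2105, 2224 and 1278 with shMPZL3 #1, and 1727, 2420 and 1560 with shMPZL3 #2. All 6 knockdown libraries were below all controls, and those of the shRNAs overlapped each other. The log2 fold change was -0.79 ± 0.16 (SE, adjusted p = 0.00716, edgeR) in the grouped comparison, -0.81 ± 0.18 with shMPZL3 #1 and -0.78 ± 0.18 with shMPZL3 #2.

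ACAT2, the cytosolic thiolase that joins 2 acetyl-CoA units at the start of the pathway, had 2028, 2088 and 2031 normalized counts in scr control, 1608, 1203 and 966 with shMPZL3 #1, and 1423, 1548 and 1339 with shMPZL3 #2. The controls lay close together and above every knockdown library. Its log2 fold change was -0.60 ± 0.14 (SE, adjusted p = 0.0111) grouped, -0.70 with shMPZL3 #1 and -0.51 with shMPZL3 #2. HMGCS1, the cytosolic HMG-CoA synthase, had 6225, 6128 and 6015 normalized counts in scr control, 5823, 5099 and 3523 with shMPZL3 #1, and 3792, 4681 and 3614 with shMPZL3 #2. Here too no knockdown library reached the controls, but shMPZL3 #1 replicate 1 came near them. HMGCS1 had a log2 fold change of -0.47 ± 0.15 (SE, adjusted p = 0.0472) grouped, and the call with a single shRNA was made for shMPZL3 #2 (-0.60, adjusted p = 0.00944) but not for shMPZL3 #1 (-0.35, adjusted p = 0.0779).

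The enzymes between HMGCS1 and IDI1 moved less. MVK, PMVK and MVD, which phosphorylate mevalonate and decarboxylate the product, had grouped log2 fold changes of -0.09, -0.27 and -0.19, and none was called in any comparison. Their single-shRNA values were -0.11 and -0.06 for MVK, -0.20 and -0.34 for PMVK, and -0.26 and -0.13 for MVD, with shMPZL3 #1 given first. FDPS, which makes farnesyl diphosphate, was lower with shMPZL3 #1 (-0.50 ± 0.13, SE, adjusted p = 0.00991) and had -0.16 with shMPZL3 #2 and -0.32 grouped, neither of them called.

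The first enzymes of the steps from squalene on were lower. FDFT1, squalene synthase, which commits farnesyl diphosphate to sterols, had 4517, 4056 and 4159 normalized counts in scr control, 3466, 2595 and 2103 with shMPZL3 #1, and 3579, 3316 and 3118 with shMPZL3 #2. SQLE, squalene epoxidase, had 2429, 2064 and 2278 normalized counts in scr control, 2020, 1418 and 992 with shMPZL3 #1, and 1601, 1389 and 1347 with shMPZL3 #2. In both genes every knockdown library was below the lowest control, and the lowest library was shMPZL3 #1 replicate 3. The grouped log2 fold change was -0.49 ± 0.15 (SE, adjusted p = 0.0381) for FDFT1 and -0.63 ± 0.16 (SE, adjusted p = 0.0223) for SQLE. SQLE was lower with each shRNA (-0.61 and -0.64), and FDFT1 was called with shMPZL3 #1 (-0.64) but not with shMPZL3 #2 (-0.35, adjusted p = 0.0997).

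MSMO1, the sterol C4-methyl oxidase, had 2481, 2171 and 2383 normalized counts in scr control, 2185, 1818 and 1381 with shMPZL3 #1, and 1410, 1799 and 1395 with shMPZL3 #2. One library, shMPZL3 #1 replicate 1, lay within the range of the controls, and the other knockdown libraries lay below it. The log2 fold change of MSMO1 was -0.49 ± 0.14 (SE, adjusted p = 0.0334) grouped, -0.39 with shMPZL3 #1 (adjusted p = 0.0471) and -0.61 with shMPZL3 #2. HSD17B7, a sterol 3-keto reductase encoded on chromosome 1 from 162790702 to 162812817, had 390, 294 and 319 normalized counts in scr control, 293, 230 and 156 with shMPZL3 #1, and 202, 199 and 198 with shMPZL3 #2. Its highest knockdown library lay just below its lowest control, and the libraries of shMPZL3 #2 were nearly equal. With -0.65 ± 0.18 (SE, adjusted p = 0.0273) grouped, -0.56 with shMPZL3 #1 and -0.74 with shMPZL3 #2, HSD17B7 had the largest grouped change of the later sterol steps. It was also a gene of low counts, and its pseudogene HSD17B7P2 held 482 counts over the 9 libraries beside 2213 of HSD17B7, so reads could be split between the copies.

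Other enzymes of these steps were called with 1 shRNA or not at all. CYP51A1 (lanosterol 14-demethylase), EBP (a sterol isomerase) and DHCR7 (the reductase that ends one route to cholesterol) were lower with shMPZL3 #1, by log2 fold changes of -0.45, -0.44 and -0.45. With shMPZL3 #2 they had -0.39, -0.17 and -0.21, and grouped -0.42, -0.30 and -0.32, none of them called. CYP51A1 missed the grouped threshold narrowly (adjusted p = 0.0517, and 0.0292 by DESeq2), and its 6 knockdown libraries lay below the controls. LSS, the synthase that folds squalene epoxide into lanosterol, had -0.04 grouped, -0.07 with shMPZL3 #1 and -0.01 with shMPZL3 #2. NSDHL, which works with MSMO1 in removing the C4 methyl groups, had -0.17, -0.21 and -0.13, and was not called either.

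TM7SF2 and SC5D differed between the shRNAs. TM7SF2, a sterol 14-reductase encoded on chromosome 11 from 65111845 to 65116384, had 1588, 1819 and 1741 normalized counts in scr control, 2314, 1489 and 1950 with shMPZL3 #1, and 1601, 1121 and 1235 with shMPZL3 #2. SC5D, the sterol C5-desaturase encoded on chromosome 11 from 121292453 to 121308694, had 3642, 4053 and 3999 in scr control, 4151, 4976 and 3804 with shMPZL3 #1, and 2388, 3610 and 2530 with shMPZL3 #2. In SC5D each library of shMPZL3 #2 was below each of shMPZL3 #1 and of the controls, whereas in TM7SF2 the groups overlapped. SC5D was lower with shMPZL3 #2 than in scr control (-0.46 ± 0.14, SE, adjusted p = 0.0354) and had 0.14 ± 0.14 with shMPZL3 #1. The values of TM7SF2 were -0.38 and 0.16, neither of them called, and the grouped values were -0.12 for SC5D and -0.08 for TM7SF2.

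**Figure D2:**
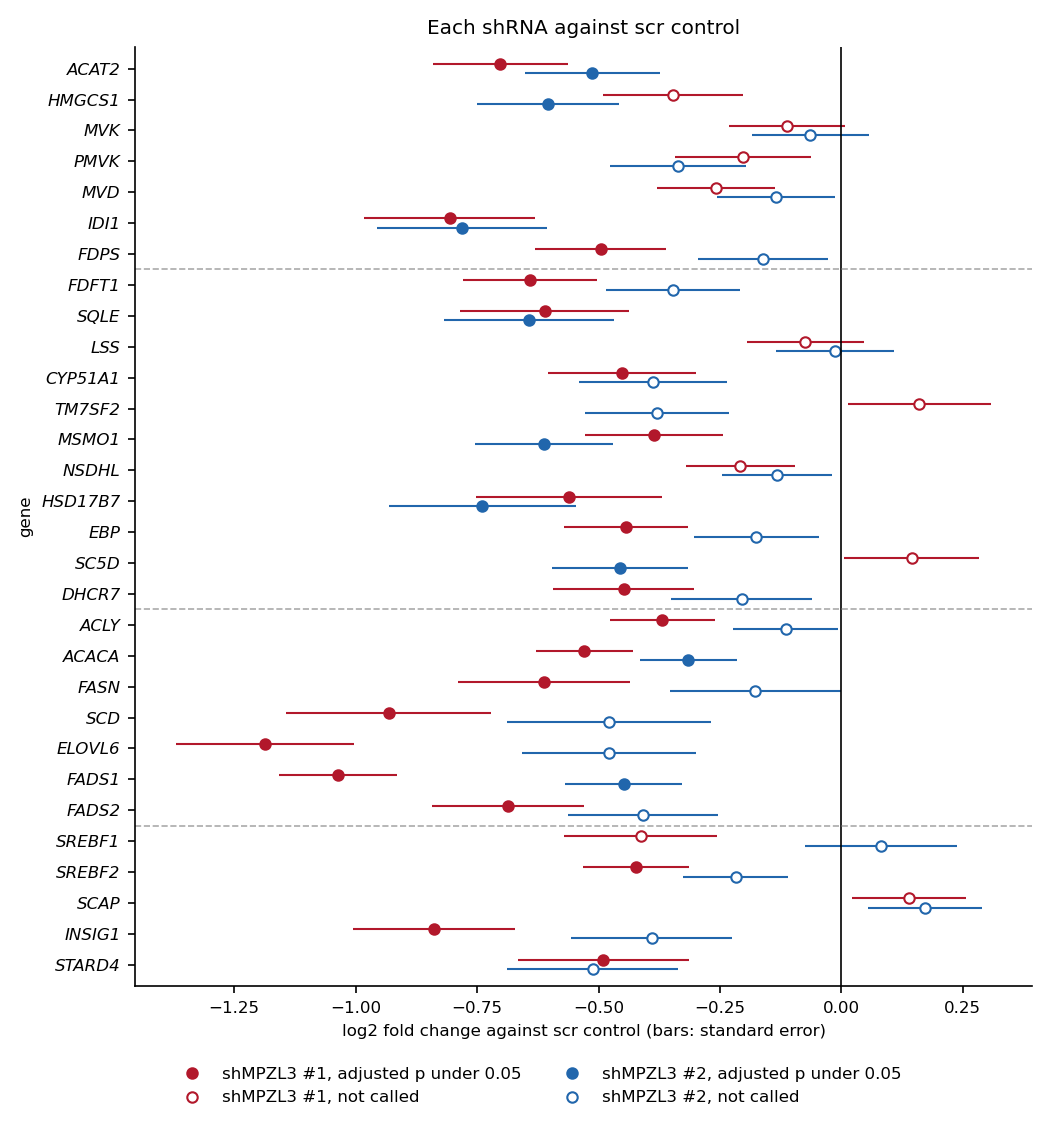
Log2 fold change of each gene (rows, by role, with dashed lines between roles) against scr control for shMPZL3 #1 (red) and shMPZL3 #2 (blue), with standard errors as bars and called values filled. All 7 fatty acid genes are filled in red and lie further left in red than in blue, while TM7SF2 and SC5D have red points to the right of 0.

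The largest changes among the members were in the fatty acid branch with shMPZL3 #1. FADS1, the delta-5 desaturase of polyunsaturated fatty acids, had 3292, 3257 and 3113 normalized counts in scr control, 1835, 1593 and 1284 with shMPZL3 #1, and 2600, 2380 and 2104 with shMPZL3 #2. The 3 groups did not overlap, with shMPZL3 #2 between the others. FADS1 had a log2 fold change of -1.04 ± 0.12 (SE, adjusted p = 1.67e-05) with shMPZL3 #1, -0.45 ± 0.12 (adjusted p = 0.0178) with shMPZL3 #2 and -0.71 ± 0.17 (adjusted p = 0.0167) grouped. ELOVL6, the elongase that takes palmitate to stearate, is encoded on chromosome 4 from 110045846 to 110199199. It had 898, 818 and 676 normalized counts in scr control, 455, 351 and 245 with shMPZL3 #1, and 560, 664 and 495 with shMPZL3 #2. Again the groups were separate and in the same order, although the highest library of shMPZL3 #2 (664) came near the lowest control (676). ELOVL6 had -1.19 ± 0.18 (SE, adjusted p = 0.000155) with shMPZL3 #1, -0.48 ± 0.18 (adjusted p = 0.0819) with shMPZL3 #2 and -0.79 ± 0.23 (adjusted p = 0.0349) grouped. DESeq2 called ELOVL6 lower with shMPZL3 #2 (adjusted p = 0.0488).

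FADS2, the delta-6 desaturase, had 777, 573 and 665 normalized counts in scr control, 511, 392 and 347 with shMPZL3 #1, and 581, 464 and 472 with shMPZL3 #2. The libraries of shMPZL3 #1 were below the controls, and shMPZL3 #2 replicate 1 was above the lowest control. FADS2 had -0.54 ± 0.15 (SE, adjusted p = 0.0316) grouped, -0.69 with shMPZL3 #1 and -0.41 with shMPZL3 #2, the last not called. ACACA, acetyl-CoA carboxylase 1, the committing enzyme of fatty acid synthesis, had 4163, 4437 and 4632 normalized counts in scr control, 3434, 2965 and 2770 with shMPZL3 #1, and 3647, 3591 and 3398 with shMPZL3 #2. Every knockdown library was below the controls, and the replicates were close. Its log2 fold change was -0.42 ± 0.10 (SE, adjusted p = 0.0187) grouped, -0.53 with shMPZL3 #1 and -0.32 with shMPZL3 #2 (adjusted p = 0.0408), called in each.

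SCD, the stearoyl-CoA desaturase that makes monounsaturated fatty acids, had 15385, 12912 and 14553 normalized counts in scr control, 11429, 6422 and 4605 with shMPZL3 #1, and 10612, 10241 and 9916 with shMPZL3 #2. No knockdown library reached the controls, yet those of shMPZL3 #1 spread widely. The grouped value of -0.69 ± 0.22 (SE, adjusted p = 0.0519) was not called, although DESeq2 called SCD lower (adjusted p = 0.0181). With shMPZL3 #1 SCD was lower (-0.93, adjusted p = 0.00297), and with shMPZL3 #2 it had -0.48 (adjusted p = 0.136). FASN, fatty acid synthase, and ACLY, which supplies cytosolic acetyl-CoA from citrate, were lower with shMPZL3 #1, by -0.61 and -0.37, although FASN was not called by DESeq2 (adjusted p = 0.064). With shMPZL3 #2 they had -0.18 and -0.11, and grouped -0.38 and -0.24, none of them called, and the difference between the shRNAs was not called in either gene (adjusted p = 0.108 and 0.126).

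Of the genes that control the pathway, INSIG1 was lower. INSIG1, the endoplasmic reticulum protein that retains SCAP, is encoded on chromosome 7 from 155297776 to 155310235. It had 1746, 1417 and 1496 normalized counts in scr control, 1143, 857 and 602 with shMPZL3 #1, and 1205, 1281 and 1067 with shMPZL3 #2, so that all knockdown libraries were below the controls. Its log2 fold change was -0.60 ± 0.19 (SE, adjusted p = 0.0437) grouped, -0.84 ± 0.17 (adjusted p = 0.00114) with shMPZL3 #1 and -0.39 ± 0.17 (adjusted p = 0.123) with shMPZL3 #2. SREBF2 was lower with shMPZL3 #1 (-0.42, adjusted p = 0.00701) and had -0.22 with shMPZL3 #2 and -0.32 (adjusted p = 0.071) grouped. STARD4, a carrier of sterol between membranes, had like values with both shRNAs, -0.49 and -0.51, but only the first was called, and its grouped value was -0.50 (adjusted p = 0.0506). By DESeq2 the grouped adjusted p was 0.0461 for SREBF2 and 0.0269 for STARD4, and that of STARD4 with shMPZL3 #2 was 0.0286. SCAP was the single member above 0 in the grouped comparison, with 0.16 ± 0.11 (SE, adjusted p = 0.353), 0.14 with shMPZL3 #1 and 0.17 with shMPZL3 #2.

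SREBF1 had 2557, 2385 and 2356 normalized counts in scr control, 2490, 1460 and 1529 with shMPZL3 #1, and 2839, 2272 and 2612 with shMPZL3 #2. With shMPZL3 #1, replicate 1 was at the level of the controls and the other replicates were far below it. The log2 fold change of SREBF1 was -0.41 (adjusted p = 0.054) with shMPZL3 #1, 0.08 (adjusted p = 0.771) with shMPZL3 #2 and -0.14 grouped. DESeq2 called SREBF1 lower with shMPZL3 #1 (adjusted p = 0.0384). The transcript of a regulator is not the amount of its active protein, which these data did not measure.

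Tested directly against each other, the shRNAs differed in 5 members. ELOVL6, FADS1 and SREBF1 were higher with shMPZL3 #2 than with shMPZL3 #1, and TM7SF2 and SC5D were lower, that is 3 higher and 2 lower of 30 where 7.56% of all genes were higher and 7.56% lower, so the number of members called was near the background. The differences in log2 were 0.71 ± 0.18 (SE, adjusted p = 0.015) for ELOVL6, 0.59 ± 0.12 (SE, adjusted p = 0.00358) for FADS1 and 0.49 ± 0.16 (SE, adjusted p = 0.0418) for SREBF1. They were -0.54 ± 0.15 (SE, adjusted p = 0.0205) for TM7SF2 and -0.60 ± 0.14 (SE, adjusted p = 0.00791) for SC5D. Without shMPZL3 #1 replicate 1 the number higher was 14 and the number lower 1, where 8.67% of all genes were higher and 8.17% lower. Without shMPZL3 #1 replicate 3 the numbers were 1 and 2, where 4.51% and 4.58% of all genes were. FADS1 and SC5D were called under each of the 15 alternatives. The hairpins also differed in how far MPZL3 fell, with a log2 fold change of -2.17 for shMPZL3 #1 and -0.89 for shMPZL3 #2, and strength of knockdown cannot be told apart from other properties of the hairpins here.

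The branch medians lay further apart with shMPZL3 #1 than with shMPZL3 #2. Over the 18 genes of the sterol branch the median log2 fold change was -0.32 grouped, -0.41 with shMPZL3 #1 and -0.36 with shMPZL3 #2, with 7, 10 and 7 genes lower. Over the 7 genes of the fatty acid branch it was -0.54, -0.69 and -0.41, with 4, 7 and 2 genes lower. Between the shRNAs the sterol median was 0.05, with 11 genes above 0 and 7 below, and the fatty acid median was 0.43, with all 7 genes above 0. These medians rested on single libraries of shMPZL3 #1. Without replicates 1, 2 and 3 of that group in turn the fatty acid median was 0.71, 0.26 and 0.20, and the sterol median was 0.20, -0.02 and -0.01. Without shMPZL3 #2 replicate 1 the medians were 0.28 and 0.00, and without shMPZL3 #2 replicate 2 or 3 the sterol median was 0.11 or 0.03. The medians over all genes in these comparisons ranged from -0.01 to 0.02. No test was made between the branches, since their members were chosen with results of these data known.

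Library by library, the fatty acid median lay below the sterol median in all 6 knockdown libraries, and also in scr control replicates 2 and 3. In shMPZL3 #1 replicates 1 to 3 the sterol medians were -0.09, -0.50 and -0.66 relative to the control mean, and the fatty acid medians were -0.36, -1.01 and -0.94. With shMPZL3 #2 they were -0.14, -0.38 and -0.46 for sterol genes and -0.27, -0.44 and -0.50 for fatty acid genes. The gap between the branches was therefore -0.27 to -0.51 with shMPZL3 #1, -0.04 to -0.14 with shMPZL3 #2 and -0.05 to 0.08 in scr control. The gaps in shMPZL3 #2 replicates 2 and 3, -0.054 and -0.039, were about the size of that in scr control replicate 2, -0.053.

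**Figure D3:**
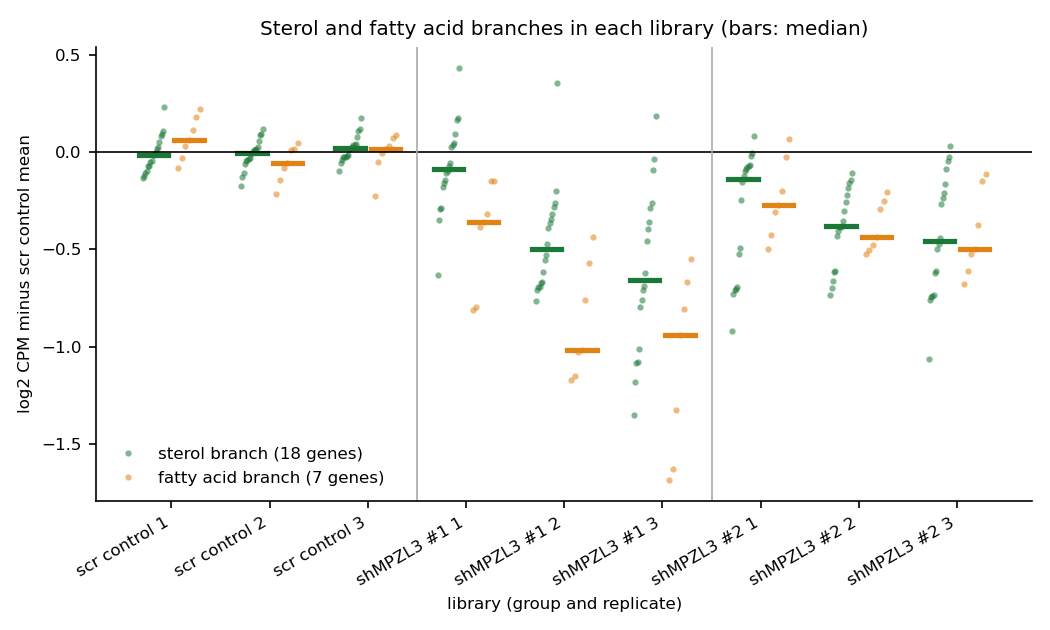
Log2 CPM minus the scr control mean for each gene of the sterol branch (green) and of the fatty acid branch (orange) in each library, with bars at the medians. The orange bar is below the green bar in all 6 knockdown libraries, and the gap is widest in shMPZL3 #1 replicate 2. In scr control replicates 2 and 3 the orange bar is also lower, with gaps of -0.053 and -0.0017.

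Replicates of shMPZL3 #1 did not respond alike. Replicate 1 had the highest value of its group in 26 of the 30 members, all 7 fatty acid genes among them, and its median over the members was -0.15, against -0.57 and -0.70 in replicates 2 and 3. Replicate 3 was the lowest of the group in 18 members and replicate 2 in 12. MPZL3 had 119 normalized counts in replicate 1 and 143 and 123 in replicates 2 and 3. With shMPZL3 #2 the medians over the members were -0.18, -0.35 and -0.46. The share of counts from mitochondrially encoded genes was 8.65%, 8.52% and 7.75% in shMPZL3 #1 replicates 1 to 3, and its part in this spread was not tested. Without shMPZL3 #1 replicate 1 the count of members lower with that shRNA was 24, with the 20 among them, where 13.9% of all genes were lower.

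Levels of different genes were set side by side as CPM per kilobase of exon. The length used is that of all annotated exons of a gene, not of the transcripts present in these cells, so the order of genes is approximate. On this scale the highest levels were those of fatty acid genes. In scr control SCD had 130 ± 11.4 and FASN 108 ± 5.39 (mean ± SD, n = 3), and they were followed by DHCR7 with 70.7 ± 1.80 and EBP with 68.9 ± 1.09. DHCR7 and EBP were close, and their ranges of mean ± SD overlapped. The lowest were FADS2 with 2.97 ± 0.449, HSD17B7 with 3.41 ± 0.504 and ELOVL6 with 5.32 ± 0.747, of which FADS2 and HSD17B7 did not differ beyond their spread. CYP51A1, with 5.82 ± 0.346, lay within the spread of ELOVL6. The place of FADS2 depends on its length of 11026 bases, against 4778 for HSD17B7. Its mean normalized count in scr control was 672, against 334 for HSD17B7. With shMPZL3 #1 the levels of SCD and FASN were 68.0 ± 32.1 and 70.3 ± 23.5, and with shMPZL3 #2 they were 93.1 ± 3.16 and 95.1 ± 18.6. SREBF2 was present at 41.7 ± 0.801 in scr control and SREBF1 at 14.8 ± 0.657, and SCAP and INSIG1 at 8.34 ± 0.272 and 20.7 ± 2.29.

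**Figure D4:**
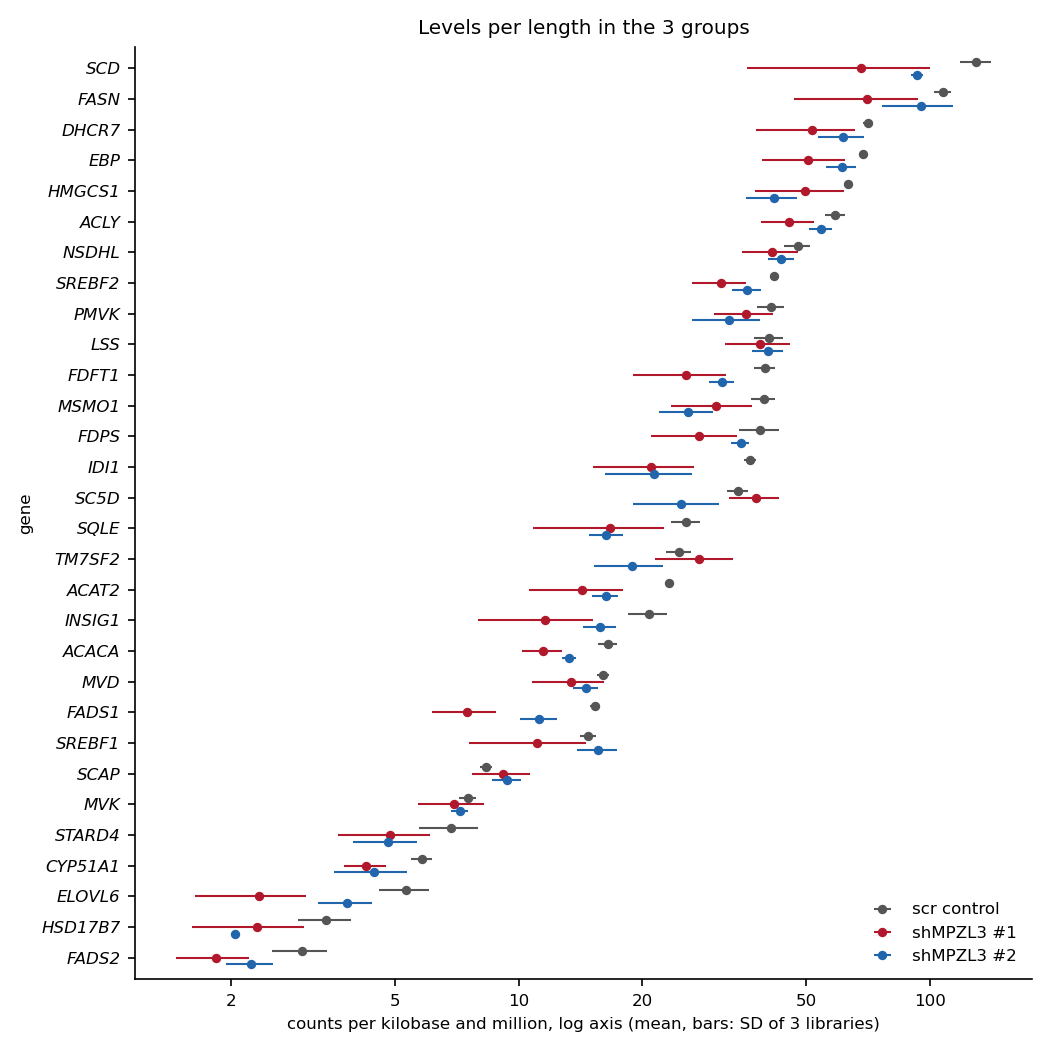
Mean CPM per kilobase of exon of each gene on a log axis in scr control (grey), shMPZL3 #1 (red) and shMPZL3 #2 (blue), with the SD of 3 libraries as bars and genes ordered by the control level. The range in scr control runs from 2.97 for FADS2 to 130 for SCD, and the red point is the leftmost for all 7 fatty acid genes.

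Beyond the members, 56 further genes of the same pathways were measured, and those called lay in both directions. In the grouped comparison 6 were higher and 4 lower, counts near the shares of all genes (9.36% higher and 6.4% lower), and their median log2 fold change was -0.05. Of 23 genes of sterol sensing, transport and storage, 3 were lower: GPAM, the acyltransferase that starts glycerolipid synthesis (-0.73), TMEM97, a membrane protein that binds sterols (-0.55), and SOAT1, which esterifies cholesterol (-0.34). NR1H2, the oxysterol receptor LXR-beta, was higher, by 0.50. GPAM was lower with each shRNA (-0.74 and -0.71), from 899 to 943 normalized counts in scr control to 480 to 605 in the 6 knockdown libraries. Of 9 genes that use isoprenoids, DHDDS, which makes the dolichol chain, was higher (0.52), and PDSS1, which makes the side chain of coenzyme Q, was lower (-0.71).

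Of 24 other fatty acid genes 3 were higher and 0 lower in the grouped comparison, a count near the 9.36% of all genes that were higher. They were ACSL5, an acyl-CoA synthetase (0.85), FADS3, the neighbour and relative of FADS1 and FADS2 (0.53), and HACD1, a dehydratase of chain elongation (0.46). With shMPZL3 #1 4 of the 24 were higher and 3 lower, where 16.8% and 15.3% of all genes were, and with shMPZL3 #2 2 were higher and 2 lower, where 9.36% and 5.8% were. FADS3 lies on chromosome 11 from 61873519 to 61892051, next to FADS2 (61792980 to 61867354) and FADS1 (61799625 to 61829318). FADS3 had 2012, 2647 and 2779 normalized counts in scr control, 3495, 3175 and 3604 with shMPZL3 #1, and 3909, 3614 and 3702 with shMPZL3 #2. All knockdown libraries were above the controls, with a log2 fold change of 0.47 for shMPZL3 #1 (adjusted p = 0.00497) and 0.59 for shMPZL3 #2 (adjusted p = 0.00189), whereas FADS1 and FADS2 had -0.71 and -0.54 grouped.

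**Figure D5:**
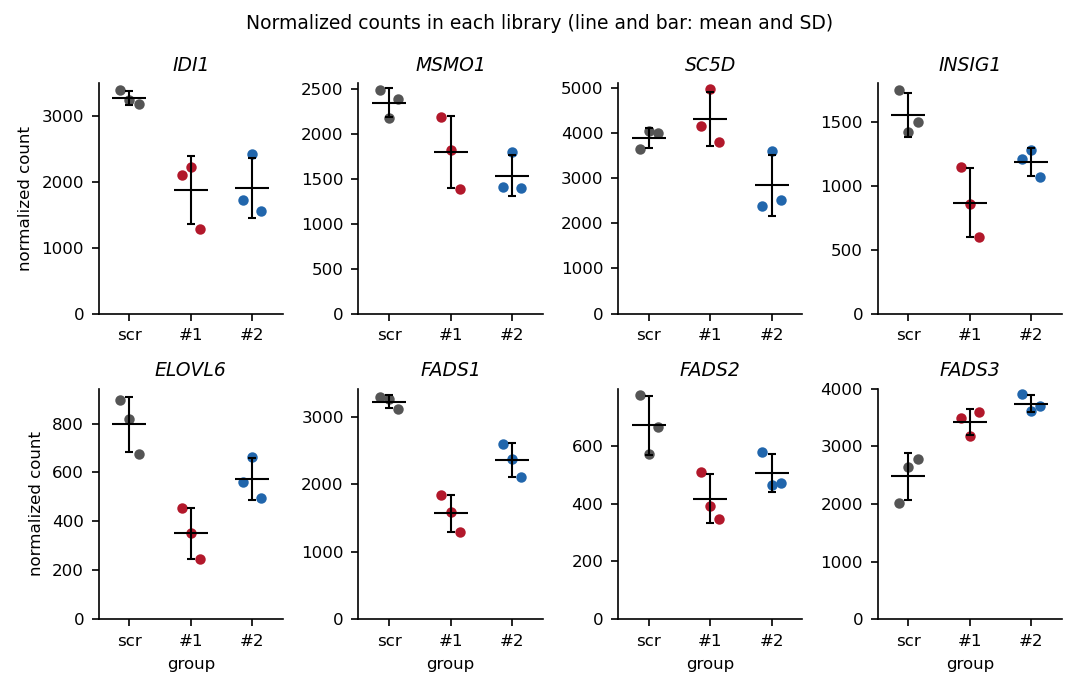
Normalized counts of 8 genes in each library of scr control (scr), shMPZL3 #1 (#1) and shMPZL3 #2 (#2), on axes that start at 0, with the mean and SD of each group as a line and bar. FADS1 and ELOVL6 are lowest with shMPZL3 #1, SC5D is lowest with shMPZL3 #2, and FADS3 is above the controls in all 6 knockdown libraries.

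The libraries did not keep the strand of the RNA, so reads where 2 genes overlap could not be told apart. FADS1 and FADS2 share 490 exon bases, 4.79% and 4.44% of theirs. ACAT2 shares 33.9% of its exon bases with SOD2-OT1 and 26.5% with SOD2, which held 0 and 5 counts over the 9 libraries, and 9.23% with TCP1, which held 42745 counts beside 13919 of ACAT2. CYP51A1 shares 79.4% of its exon bases with the readthrough gene AC000120.2, which held 0 counts, and how the counter treated reads in both is not given in the sources used here. SREBF1 shares 6.92% with RAI1 and MVK 4.72% with MMAB, and the part of these overlaps in the fold changes was not tested.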

How the data were processed

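The deposited values were raw counts of reads per gene. Per the labels and the study's methods, the authors made poly-A libraries without strand information, aligned reads to hg38 with HISAT2 2.0.5 and counted them with featureCounts 1.5.0-p3. How reads in more than 1 gene or place were counted is not given in the sources used here. All 58735 gene identifiers, positions and names matched GENCODE 29.

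Libraries were grouped by their labels. Genes were filtered with filterByExpr, which kept 16928, and tested with edgeR 4.0.16 (R 4.3.3; TMM scaling, quasi-likelihood F test, Benjamini-Hochberg adjustment over those genes, threshold 0.05). The grouped comparison set 6 knockdown libraries against 3 of scr control, and 1 fit of the 3 groups gave the single-shRNA comparisons and the difference between shRNAs. Normalized counts were scaled to the mean effective library size, log2 CPM had a prior count of 2, and CPM per kilobase used the deposited gene length. The scripts were tested on simulated data. Exact permutation tests used scipy 1.17.1. Alternatives were DESeq2 1.42.0, RLE and upper-quartile scaling, no filter, at least 10 counts in every library, the replicate number as a block, and leaving out each library.

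The members and lists were chosen with earlier results of these data known. All members were named, with values in every library for those called in the grouped comparison, with both shRNAs or between the shRNAs, and for the largest change of each role. Of other pathway genes, up to 4 called genes per list were named. A gene among these is counted but not reported here by name. SOAT1 and the library values of SCD, GPAM and FADS3 were added after their values were seen. Depth was 15040102 to 27835841 counts per library.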

Additional observations from a re-analysis of the deposited data

Results flagged for a closer look

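In 5 members the responses to the shRNAs differed by a direct test (edgeR's quasi-likelihood test, adjusted over all genes), where 7.56% of all genes were higher and 7.56% lower. The log2 difference of shMPZL3 #2 minus shMPZL3 #1 was 0.71 for ELOVL6, 0.59 for FADS1 and 0.49 for SREBF1. It was -0.54 for TM7SF2 and -0.60 for SC5D. The difference of SC5D was called under each of the 15 alternatives, as was that of FADS1. ELOVL6 was not called without shMPZL3 #1 replicate 3, and TM7SF2 was not called without shMPZL3 #1 replicate 1 or 3 or without shMPZL3 #2 replicate 2 or 3. The call for SREBF1 was lost under 7 alternatives.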

How the results depend on the processing

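No called member changed sign under any alternative, and 0 members were higher than in scr control in all of them. Leaving out single libraries gave 1 to 14 members lower in the grouped comparison (12 with all libraries), 10 to 24 for shMPZL3 #1 (20), and 1 to 14 for shMPZL3 #2 (9). Between the shRNAs it gave 1 to 2 members lower (2) and 1 to 14 higher (3). The shares of all genes lower were then 0.978% to 8.25% grouped, 9.68% to 16.1% for shMPZL3 #1 and 2.02% to 7.89% for shMPZL3 #2. Between the shRNAs the shares were 4.58% to 8.17% lower and 3.81% to 8.67% higher. With no filter on low counts 15 members were lower with shMPZL3 #2 (3.18% of all genes). In that setting 7 were higher with shMPZL3 #2 than with shMPZL3 #1 (4.19%). With the replicate block 14 members were lower grouped, 23 with shMPZL3 #1 and 18 with shMPZL3 #2 (5.85%, 18.3% and 9.43% of all genes), and 9 were higher with shMPZL3 #2 than with shMPZL3 #1 (11.9%). HMGCS1 was then also called with shMPZL3 #1, and CYP51A1, ELOVL6, FADS2, FDFT1, INSIG1, SCD and STARD4 also with shMPZL3 #2. The main fits held no replicate block, because the study's methods state no pairing of the replicates. Deviations from the group means correlated above 0.1 in 3 of 9 same-numbered pairs (range -0.00143 to 0.22), and other pairs ranged from -0.15 to 0.067. Between the shRNAs the same-numbered pairs had 0.14, 0.22 and 0.097. As 8 of the 9 libraries correlated best with one of their own number, the unblocked fits may leave out a pairing. The cause of these shifts was not tested. DESeq2 gave 16, 20 and 11 members lower in the 3 comparisons with scr control. Without ACLY and ACAT2, whose products serve both branches, the medians with shMPZL3 #1 were -0.39 for sterol genes and -0.81 for fatty acid genes, and with shMPZL3 #2 -0.35 and -0.43.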
